A study of Homo sapiens with 6 samples.

Results

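Glycolysis turns glucose into pyruvate and lactate through a chain of cytosolic enzymes, and many prostate cancer cells use it even when oxygen is present. When oxygen is scarce, the hypoxia-inducible factors (HIFs) escape prolyl hydroxylation, bind DNA, and raise transcription of most of these enzymes together with glucose and lactate transporters, pyruvate dehydrogenase kinases and genes for blood vessel growth and mitophagy. The 38 genes described here were chosen by name and function as a glycolysis and hypoxia response group: 19 glycolytic enzymes, 4 glucose and lactate transporters, 2 pyruvate dehydrogenase kinases, 4 genes of the HIF system itself (HIF subunits and prolyl hydroxylases) and 9 further HIF targets. The choice was made with earlier results of these data known. The genes were found by the gene name of each probe, which gave 52 of the 58201 gene probes on the array. The array names 43317 genes or transcripts in all.

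All samples were 22RV1 cells, a long-established prostate cancer line of human origin that the labels describe as SPINK1 positive. Stable lines carried a lentiviral pLemiR vector for miR-338-5p, the same type of vector for miR-421, or pLemiR-RFP, which encodes a red fluorescent protein and served as control. All lines grew in puromycin. A 2-colour Agilent array compared Cy5-labelled RNA of a microRNA (miRNA) line with Cy3-labelled RNA of the control, with 3 arrays per line and no dye swap. The miR-338-5p arrays were replicates 1, 2 and 3. The miR-421 arrays were replicates 1 and 2 and a sample whose label says pool. What the pool holds and what the letter C in the other 5 labels stands for are not explained, and the labels do not say whether samples came from separate cultures or whether 1 control culture supplied every array. The p-values therefore measure the spread between these samples, which may be technical, and a dye bias of a probe would enter both comparisons with control. The labels name no hypoxic culture.

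Both miRNAs are small RNAs that pair with messenger RNAs mainly through the seed, bases 2 to 8 and they are what the lines were built to carry, so their sequences are shown first. The mature sequences are from RefSeq (GRCh38.p14), with the seed in capitals. The miR-338-5p sequence lies at chr17:81125923-81125944 and the miR-421 sequence at chrX:74218392-74218414, both on the minus strand.
hsa-miR-338-5p: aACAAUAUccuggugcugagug
hsa-miR-421: aUCAACAGacauuaauugggcgc
The miRNAs have different seeds.

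HIF dimers bind DNA at a short core, ACGTG or GCGTG, and RefSeq promoters were found for 34 of the 38 genes; none was used for VEGFA, SLC2A3, SLC16A1 or BNIP3L. Each promoter spanned 300 bases, 250 before and 50 after the annotated start, and both strands were searched, so that CACGT and CACGC also count. Where 2 copies of ACGTG overlap on opposite strands, as in CACGTG, each was counted. At least 1 of the motifs stood in 25 of the 34 promoters (73.5%), against 48.4% of all 27305 promoters of the same length. ACGTG alone stood in 41.2% of the members' promoters and in 21.6% of all. Among the roles, 14 of the 19 glycolytic promoters and 6 of the 7 HIF target promoters held at least 1 motif. A match describes the letters and does not show that a HIF binds there. The windows below, each of 30 bases with the motif in capitals, are 5 examples, chosen after their values were seen, of genes that hold a motif and were lower in the miR-338-5p line than in the miR-421 line on every array. ALDOA, GPI, HK2, PFKFB3, PKM and CA12 share both features and are not shown. All are read 5′ to 3′ on the gene's strand in GRCh38.p14.
LDHA: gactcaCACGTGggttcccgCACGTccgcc
GAPDH: gctctgcggggtCACGTGtcgcagaggagc
PGK1: ggttcgcgGCGTGccggACGTGacaaacgg
ENO1: tcacccccctttcCACGCtactgcagccgt
BNIP3: cgcgCACGCgccgCACGTGccaCACGCacc
The LDHA window is at chr11:18394470-18394499 (plus strand), and LDHA held 6 motif copies in its whole promoter, as did BNIP3, whose window is at chr10:131982041-131982070 (minus strand). The GAPDH window is at chr12:6535171-6535200 (plus), that of PGK1 at chrX:78104029-78104058 (plus) and that of ENO1 at chr1:8878836-8878865 (minus). No motif was found in the promoters of HK1, PFKM, PFKP, PGAM1, TPI1, EGLN3, P4HA2, SLC16A3 and PDK1. Of these genes, HK1, PFKM, PFKP, PGAM1, TPI1 and EGLN3 were also lower in the miR-338-5p line than in the miR-421 line on every array. The arrays of P4HA2, SLC16A3 and PDK1 overlapped between the lines. The absence of a motif says only that these letters are not in those windows. Among the glycolytic enzymes, ALDOC, ENO2, LDHB, PFKFB4 and PFKL held a motif while their arrays overlapped between the lines. A link between the motifs and the difference of the lines was not tested.

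Of the gene spots, the share measured well above their background in Cy3 was 47.3% to 47.9% on the miR-338-5p arrays and 44.3% to 44.4% on the miR-421 arrays, and in Cy5 it was 41.9% to 48.3%, lowest on miR-421 replicate 1. All 11 prostate epithelial markers were well above background. The fibroblast marker COL1A2 and the endothelial marker PECAM1 were not well above background on any array. The other markers, 3 fibroblast, 2 endothelial and 3 leukocyte, each had a probe well above background in Cy3 on all 6 arrays. LUM, one of these fibroblast markers, rose in the miR-421 line (log2 ratio 2.14 ± 0.73, SD, n = 3). None of the 3 leukocyte markers or of the 2 tested endothelial markers passed in either line. SPINK1, the marker named in the labels, was lower than control on all 6 arrays, at log2 ratios of -2.10 to -7.01. The part of these shifts in the results below was not tested. In RNA of a whole culture, fewer cells with a transcript and less transcript per cell cannot be told apart. Of the 38 genes, 36 had a probe that was measured well enough to test, and 48 of the 52 probes were tested. SLC2A3, a high-affinity glucose transporter, and CA9, a carbonic anhydrase strongly induced by hypoxia in many tumours, did not exceed background clearly on any of the 6 arrays in Cy3 or in Cy5. Each gene is described by its brightest tested probe. Values are log2 ratios of the miRNA line over control, as the mean of 3 arrays ± SD unless given per array, so a negative value means less signal in the miRNA line than in control.

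In the miR-338-5p line, the glycolytic genes PGAM1, ENO1, ENO2, LDHA and LDHB fell to between 56.4% and 61.1% of the control signal, and no glycolytic enzyme rose. The lactate transporter gene SLC16A1 also fell, while VEGFA, a HIF target, rose to 191% of control. In total 7 of 36 tested members passed at a limma adjusted p under 0.05 (1 higher, 6 lower). Over all genes tested, 9.25% were called in this comparison, 3.99% higher and 5.26% lower. In the miR-421 line more members were called and in both directions: 15 of 36 passed, 10 higher and 5 lower, against 22.7% of all genes, 10% higher and 12.6% lower. There the glycolytic genes HK1, PFKL, ALDOA, GAPDH and PGK1 rose, whereas ENO2, LDHB, SLC16A1 and SLC16A3 fell. The other calls in that line were higher SLC2A1, VEGFA, ADM, ANKRD37 and BNIP3 and lower EPAS1. Both comparisons are against the same control line, and whether they share control RNA is not given in the labels.

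**Figure D1:**
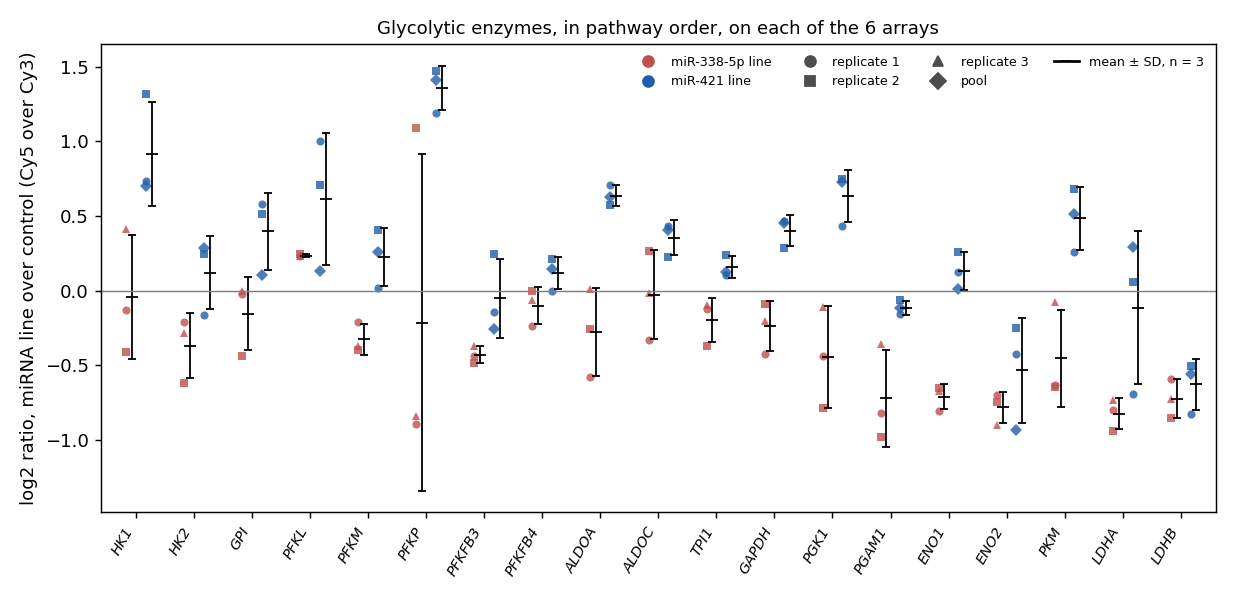
Log2 ratios of the miRNA line over control (vertical axis) for the 19 glycolytic enzymes in pathway order (horizontal axis). Symbols are the arrays, red for miR-338-5p and blue for miR-421, and black bars give the mean ± SD (n = 3). Red symbols lie below blue ones without overlap for 14 of the 19 enzymes, and LDHB lies below 0 on all 6 arrays.

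Hexokinases trap glucose in the cell as glucose 6-phosphate. The HK1 log2 ratios were -0.13, -0.41 and 0.41 on miR-338-5p replicates 1, 2 and 3, and 0.70 (pool), 0.73 (replicate 1) and 1.31 (replicate 2) on the miR-421 arrays. Every miR-421 array was above every miR-338-5p array, and the miR-338-5p arrays lay on both sides of 0. HK1 rose in the miR-421 line to 188% of control (0.91 ± 0.35, limma adjusted p = 0.023), and its miR-338-5p mean was -0.04 ± 0.42 (limma adjusted p = 0.91). HK2, the inducible hexokinase, did not pass in either line, with means of -0.37 and 0.12. GPI, which converts glucose 6-phosphate to fructose 6-phosphate, had means of -0.15 and 0.40 and did not pass either.

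Phosphofructokinase commits sugar to glycolysis and exists as liver (PFKL), muscle (PFKM) and platelet (PFKP) subunits. For PFKL the ratios were 0.23, 0.24 and 0.23 in the miR-338-5p line and 0.13, 1.00 and 0.71 (pool, replicates 1 and 2) in the miR-421 line. The pool was the lowest of the 6 arrays and both other miR-421 arrays were the highest. PFKL was the single glycolytic enzyme with a mean above 0 in the miR-338-5p line (0.23, limma adjusted p = 0.39), and it rose in the miR-421 line (0.61 ± 0.44, limma adjusted p = 0.039). PFKP ranged more widely, at -0.89, 1.09 and -0.84 against 1.41, 1.19 and 1.47. Here miR-338-5p replicate 2 was close to the miR-421 arrays and apart from the other miR-338-5p arrays. Although PFKP had the highest miR-421 mean of the glycolytic enzymes (1.36 ± 0.15, or 256% of control), it did not pass (limma adjusted p = 0.052), nor did it in the miR-338-5p line (-0.21 ± 1.13, limma adjusted p = 0.77). A second PFKP probe had means of -0.15 and 1.01. PFKM did not pass in either line (-0.33 and 0.23), and neither did PFKFB3 or PFKFB4, which make and degrade the phosphofructokinase activator fructose 2,6-bisphosphate (means between -0.43 and 0.12).

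Aldolase splits the 6-carbon sugar, and the muscle-type form ALDOA is the common one in cultured cells. ALDOA gave -0.58, -0.25 and 0.01 on the miR-338-5p arrays and 0.62, 0.71 and 0.57 on the miR-421 arrays. The lines did not overlap, and the miR-421 arrays lay close together. ALDOA rose to 155% of control in the miR-421 line (0.64 ± 0.07, limma adjusted p = 0.016), with -0.28 ± 0.29 in the miR-338-5p line (limma adjusted p = 0.18). GAPDH, whose enzyme produces NADH and which is often used as a reference gene, gave -0.42, -0.09 and -0.20 against 0.45, 0.47 and 0.28. All miR-338-5p arrays were below 0 and all miR-421 arrays above. It rose in the miR-421 line to 132% of control (0.40 ± 0.10, limma adjusted p = 0.022). This rise depended on the processing: it was 0.19 by the image software's ratio (limma adjusted p = 0.43), 0.18 in the authors' deposited table (limma adjusted p = 0.41) and 0.71 with median centring (limma adjusted p = 0.020), and it passed in 8 of 16 alternatives. The gene for the next enzyme, PGK1, which forms the first ATP, gave -0.44, -0.79 and -0.11 against 0.72, 0.43 and 0.75. Again the lines lay on opposite sides of 0 on every array. PGK1 rose to 155% of control in the miR-421 line (0.63 ± 0.17, limma adjusted p = 0.026), and its miR-338-5p mean of -0.44 ± 0.34 did not pass (limma adjusted p = 0.097). The PGK1 rise, like that of GAPDH, passed in 8 of 16 alternatives. The probes lie at chr16:30081324-30081470 (ALDOA), chr12:6646918-6646977 (GAPDH) and chrX:77381462-77381521 (PGK1) in hg19. ALDOC, the brain-type aldolase, and TPI1, triosephosphate isomerase, did not pass in either line. Several genes of the pathway, such as GAPDH, PGK1, TPI1, LDHA, ENO1 and PGAM1, have pseudogenes of similar sequence, and binding of those transcripts to the probes was not tested.

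PGAM1, which moves the phosphate from carbon 3 to carbon 2, gave -0.82, -0.98 and -0.36 in the miR-338-5p line and -0.12, -0.16 and -0.07 in the miR-421 line. All 6 arrays were below 0, and the miR-338-5p arrays were lower throughout. The fall passed in the miR-338-5p line (-0.72 ± 0.32, limma adjusted p = 0.024) and not in the miR-421 line (-0.11, limma adjusted p = 0.53). A dimmer PGAM1 probe with means of -0.58 and -0.02 did not pass in either.

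Enolase forms phosphoenolpyruvate, and ENO1 is its widespread form while ENO2 is the neuronal form also seen in neuroendocrine tumours. ENO1 ratios were -0.81, -0.65 and -0.67 against 0.01, 0.12 and 0.26. The miR-338-5p arrays clustered within a narrow range far below the miR-421 arrays, which sat at or just above control. ENO1 fell to 61.1% of control in the miR-338-5p line (-0.71 ± 0.08, limma adjusted p = 0.0073) and did not pass in the miR-421 line (0.13 ± 0.12, limma adjusted p = 0.21). For ENO2 the ratios were -0.70, -0.74 and -0.90 against -0.93, -0.42 and -0.25. All 6 arrays were below 0, the lines overlapped, and the pool was the lowest array. ENO2 fell in both, to 58.2% (limma adjusted p = 0.025) and 69.0% (limma adjusted p = 0.037) of control. The ENO1 probe is at chr1:8924054-8924113 in hg19. Pyruvate kinase, PKM, had means of -0.45 ± 0.32 and 0.48 ± 0.21 and did not pass in either line (limma adjusted p = 0.096 and 0.053).

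Lactate dehydrogenase interconverts pyruvate and lactate, with LDHA as the HIF-induced subunit and LDHB as the subunit of oxidative tissues. LDHA gave -0.80, -0.94 and -0.74 in the miR-338-5p line and 0.29, -0.69 and 0.06 in the miR-421 line. The miR-421 replicate 1 array was close to the miR-338-5p arrays, whereas the pool and replicate 2 were not. LDHA fell to 56.4% of control in the miR-338-5p line (-0.83 ± 0.10, limma adjusted p = 0.045), with -0.11 ± 0.51 in the miR-421 line (limma adjusted p = 0.69). The probe is at chr11:18428789-18428848 in hg19. A second LDHA probe carries deposited coordinates on chromosome 9, another chromosome than the gene, and had means of -0.92 (limma adjusted p = 0.039) and -0.19. LDHB gave -0.59, -0.85 and -0.73 against -0.56, -0.83 and -0.50. It was below 0 on all 6 arrays and the lines overlapped. LDHB fell to 60.6% (limma adjusted p = 0.013) and 64.7% (limma adjusted p = 0.0089) of control, and its second probe fell too, with means of -0.997 and -0.807. With median centring the means of the brighter probe were -0.64 and -0.27, and the miR-421 mean did not pass (limma adjusted p = 0.18). The brighter LDHB probe is at chr12:21788449-21788508 in hg19.

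Glucose and lactate cross the membrane through transporters. SLC2A1 encodes GLUT1, the basal glucose transporter, and gave 0.29, 0.36 and 0.82 in the miR-338-5p line and 0.43, 0.59 and 0.70 in the miR-421 line. All 6 arrays were above 0 and the lines overlapped. It rose in the miR-421 line to 149% of control (0.57 ± 0.14, limma adjusted p = 0.023), and its miR-338-5p mean was 0.49 ± 0.29 (limma adjusted p = 0.054). SLC16A1, the monocarboxylate transporter MCT1, gave -0.50, -0.54 and -0.81 against -0.38, -0.49 and -0.48. Every array was below control, and the miR-338-5p arrays were marginally the lower. SLC16A1 fell in both lines, to 65.2% (limma adjusted p = 0.013) and 73.3% (limma adjusted p = 0.014). SLC16A3, the HIF-induced lactate exporter MCT4, was the member with the lowest means: -1.48, -2.51 and -0.20 against -2.17, -2.23 and -1.96. The miR-421 arrays lay close together, while the miR-338-5p arrays spread from near control to the lowest value of all. SLC16A3 fell to 23.0% of control in the miR-421 line (-2.12 ± 0.15, limma adjusted p = 0.018), and the miR-338-5p mean of -1.39 ± 1.16 did not pass (limma adjusted p = 0.081). The probes are at chr1:43391874-43391933 (SLC2A1), chr1:113454503-113454562 (SLC16A1) and chr17:80197288-80197347 (SLC16A3) in hg19. In the miR-421 line the glucose importer thus rose while both monocarboxylate transporters fell. Plain background subtraction moved the SLC16A1 means to -1.05 and -0.78, and the image software's ratio to -1.09 and -0.81.

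**Figure D2:**
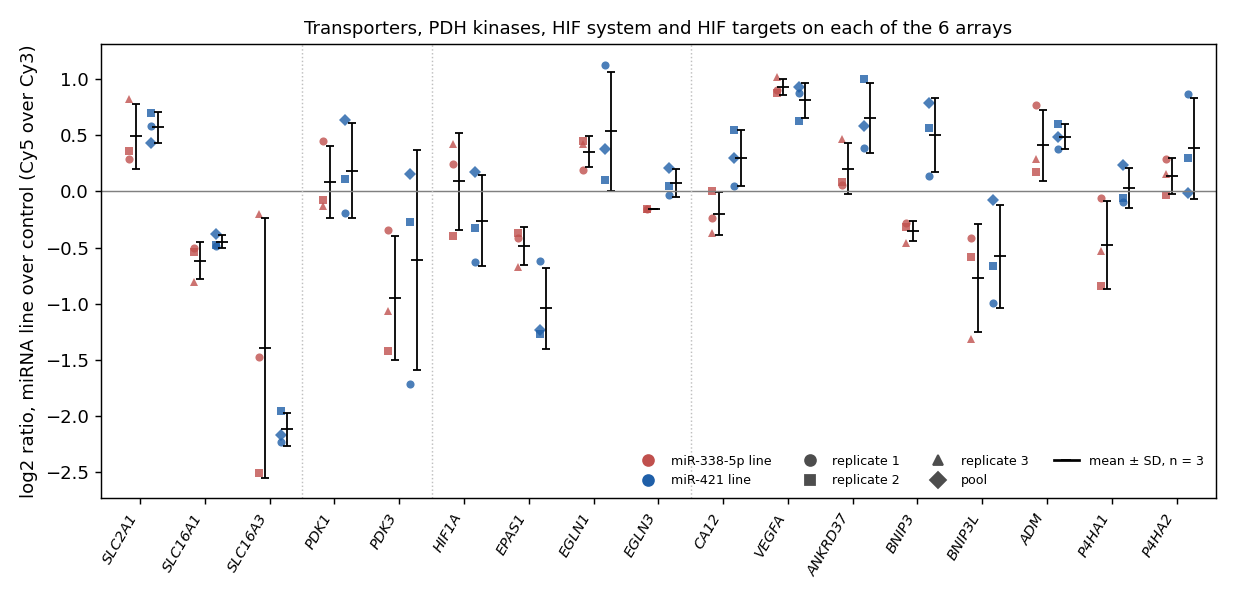
Log2 ratios of the miRNA line over control (vertical axis) for the 17 other tested members (horizontal axis), split by dotted lines into transporters, pyruvate dehydrogenase kinases, HIF subunits and prolyl hydroxylases, and HIF targets. Symbols are the arrays and black bars the mean ± SD (n = 3); VEGFA lies above 0 and SLC16A1 and SLC16A3 below 0 on all 6 arrays.

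Pyruvate dehydrogenase kinases shut the entry of pyruvate into the mitochondrial cycle. PDK1, a classical HIF target, gave 0.45, -0.08 and -0.13 against 0.64, -0.19 and 0.11. Arrays of either line lay on both sides of 0, and neither mean passed (0.08 and 0.19, limma adjusted p = 0.82 and 0.50). PDK3 gave -0.35, -1.43 and -1.07 against 0.16, -1.71 and -0.28. The lines overlapped widely, and miR-421 replicate 1 was the lowest array. Neither PDK3 mean passed (-0.95 and -0.61), and a dimmer PDK3 probe with means of -0.03 and 0.18 differed from it in sign in the miR-421 line.

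HIF1A and EPAS1 encode the oxygen-regulated HIF alpha subunits, and EGLN1 and EGLN3 the prolyl hydroxylases that mark them for degradation. EPAS1, also called HIF2A, gave -0.42, -0.37 and -0.67 against -1.24, -0.62 and -1.27. All 6 arrays were below control, and the pool and replicate 2 of miR-421 were the lowest. EPAS1 fell to 48.5% of control in the miR-421 line (-1.04 ± 0.36, limma adjusted p = 0.0088), and its miR-338-5p mean was -0.49 ± 0.17 (limma adjusted p = 0.087). The miR-421 mean was -1.87 with plain background subtraction. The probe is at chr2:46613666-46613725 in hg19. EGLN1 gave 0.19, 0.45 and 0.42 against 0.38, 1.13 and 0.10, which was above 0 on every array. Its means of 0.35 and 0.53 did not pass (limma adjusted p = 0.29 and 0.093). HIF1A messenger RNA did not pass in either line (0.09 ± 0.43 and -0.26 ± 0.41), nor did EGLN3, which was well above background in Cy5 on only 2 arrays. Because HIF alpha proteins are controlled mainly by degradation, these RNA levels do not measure HIF activity.

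Among the HIF targets, VEGFA, the endothelial growth factor, was called in both lines. Its ratios were 0.90, 0.88 and 1.02 in the miR-338-5p line and 0.93, 0.88 and 0.63 in the miR-421 line. All arrays were above 0 and the lines overlapped. VEGFA rose in both, to 191% (0.93 ± 0.07, limma adjusted p = 0.0057) and 175% (0.81 ± 0.16, limma adjusted p = 0.0039) of control, and a second probe rose as well (0.67 and 0.57). The deposited coordinates of the brighter probe span chr6:43746223-43746634 in hg19.

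Of the other HIF targets, 3 rose in the miR-421 line and none passed in the miR-338-5p line. ADM, the vasodilator peptide adrenomedullin, gave 0.77, 0.17 and 0.29 against 0.48, 0.38 and 0.60. It lay above 0 on all arrays with overlap, and rose to 140.2% of control in the miR-421 line (limma adjusted p = 0.038) beside a miR-338-5p mean of 0.41 ± 0.32 (limma adjusted p = 0.091). ANKRD37, an ankyrin repeat protein gene, gave 0.06, 0.08 and 0.47 against 0.58, 0.38 and 1.00. One miR-338-5p array exceeded the lowest miR-421 array. ANKRD37 rose to 157% of control in the miR-421 line (0.66 ± 0.31, limma adjusted p = 0.025), with 1.05 after plain background subtraction and 0.57 with median centring (limma adjusted p = 0.12). BNIP3, a mitophagy receptor, gave -0.29, -0.32 and -0.46 against 0.79, 0.14 and 0.57. All miR-338-5p arrays were below control and all miR-421 arrays above it. BNIP3 rose to 141% of control in the miR-421 line (0.50 ± 0.33, limma adjusted p = 0.037), and its miR-338-5p mean of -0.35 ± 0.09 did not pass (limma adjusted p = 0.13).

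BNIP3L, the related mitophagy receptor, gave -0.42, -0.59 and -1.32 against -0.08, -0.99 and -0.67. Every array was below 0 and the lines overlapped. Neither mean of the brightest probe passed (-0.77 and -0.58, limma adjusted p = 0.089 and 0.12), a second probe passed in the miR-421 line (-0.78, limma adjusted p = 0.044), and the dimmest probe lay near 0 (-0.14 and -0.08). CA12, P4HA1 and P4HA2, a carbonic anhydrase and 2 collagen prolyl hydroxylase subunits, had means between -0.48 and 0.38 and did not pass in either line.

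Seen by role, the groups did not share 1 direction. The glycolytic enzymes had a median log2 ratio of -0.33 in the miR-338-5p line, with 18 of 19 means below 0, and of 0.23 in the miR-421 line, with 14 of 19 above 0. Per array the medians were -0.44, -0.44 and -0.20, and 0.26, 0.12 and 0.26. The 3 tested transporters had medians of -0.62 and -0.45, and the 8 tested HIF targets -0.03 and 0.44. Medians over all genes were -0.00066 and 0.0062, and over the 2042 genes with a mean log2 intensity of 11 or more they were 0.03 and 0.01. Scaling affected these values: with arrays centred on their median in place of loess, the glycolytic medians were -0.41 and 0.35 while those of all genes were -0.08 and -0.02 and those of bright genes -0.04 and 0.17. Under this and 4 further ways of correcting and scaling the signals, 16 to 18 glycolytic means were below 0 in the miR-338-5p line and 14 or 15 above 0 in the miR-421 line.

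The lines were then compared directly, a contrast from which any dye bias that all 6 arrays share drops out. For all 19 glycolytic enzymes the miR-338-5p mean was below the miR-421 mean, with a median difference of -0.55 on the log2 scale. The 3 arrays of miR-338-5p lay below the 3 of miR-421 without overlap for 14 of the 19, and for 18 of the 36 tested members. Over all genes 10.1% showed this pattern, and 9.89% the opposite one, which no member showed. For 8 members, 7 of them glycolytic enzymes, all miR-338-5p arrays were below 0 and all miR-421 arrays above 0, against 2.06% of all genes. Yet 0 of 36 members passed the limma test of the difference after adjustment, where 0.0461% of all genes passed. At an unadjusted p under 0.05 there were 18 of 36 members, 14 of them glycolytic enzymes, against 14.3% of all genes. Leaving out miR-338-5p replicate 2, the array apart from its group for PFKP, 1 member (PFKP) passed.

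The widest differences belonged to PFKP (-1.57, 95% interval -2.88 to -0.26), PGK1 (-1.08, -1.54 to -0.61), HK1 (-0.96, -1.60 to -0.32), PKM (-0.94, -1.41 to -0.47) and ALDOA (-0.91, -1.29 to -0.53). ENO1 had the lowest adjusted p among the members (difference -0.84, -1.08 to -0.61, limma adjusted p = 0.069). By contrast LDHB (-0.10, -0.39 to 0.20; -0.38 with median centring), SLC2A1 (-0.08, -0.48 to 0.32) and VEGFA (0.12, -0.13 to 0.38) had differences near 0, with intervals that still allow a moderate difference. EPAS1 had its lower mean in the miR-421 line (difference 0.56, 0.07 to 1.04, limma adjusted p = 0.31). The intervals are not adjusted for the number of genes.

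**Figure D3:**
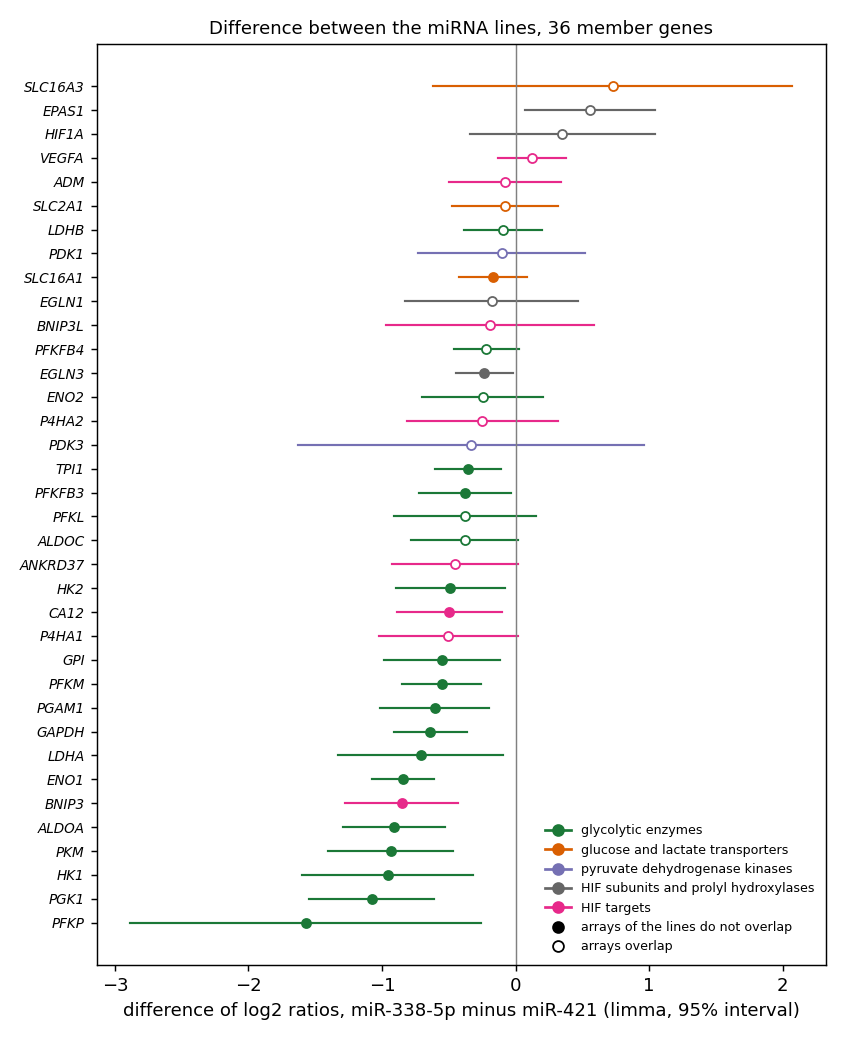
Difference of mean log2 ratios, miR-338-5p minus miR-421 (horizontal axis), with its unadjusted 95% limma interval for the 36 tested members (vertical axis), coloured by role. Filled circles mark genes whose arrays do not overlap between lines; the 19 glycolytic enzymes all lie left of 0.

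The ratio was also split into its dyes. For the glycolytic enzymes the median Cy3 difference between the arrays of both lines was 0.08, while the median Cy5 difference was -0.51. Of the 19 enzymes, 18 had a Cy5 difference below 0 and 5 a Cy3 difference below 0. Over all 21697 genes tested these counts were 10318 and 9609. PFKL had the largest difference in the control dye: its Cy3 signal was lower on the miR-338-5p arrays by a difference of -0.67, beside a Cy5 difference of -1.05. In the other direction the control dye contributed most for PFKM (Cy3 0.24, Cy5 -0.32) and ALDOA (Cy3 0.23, Cy5 -0.68).

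**Figure D4:**
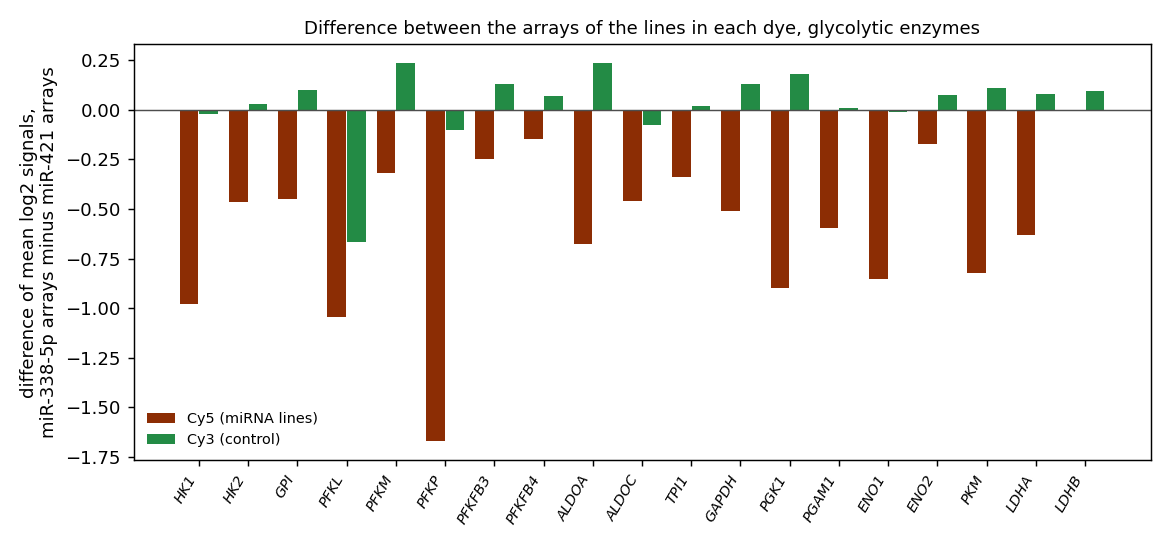
Difference of mean log2 signals, miR-338-5p arrays minus miR-421 arrays (vertical axis), in Cy5 (brown bars, miRNA lines) and Cy3 (green bars, control) for the 19 glycolytic enzymes (horizontal axis). Cy5 bars are mostly negative and longer than the Cy3 bars, which range from -0.67 (PFKL) to 0.24 (PFKM).

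The calls rested on few arrays. Of the 7 calls in the miR-338-5p line, 4 (ENO1, LDHB, SLC16A1 and VEGFA) were kept without its replicate 1, 3 (ENO1, SLC16A1 and VEGFA) without replicate 2, and 4 (ENO1, PGAM1, SLC16A1 and VEGFA) without replicate 3. The ENO2 and LDHA calls were lost in each of these cases (limma adjusted p up to 0.16). Of the 15 calls in the miR-421 line, 5 (EPAS1, LDHB, PFKL, SLC16A1 and VEGFA) were kept without the pool, 6 (ANKRD37, BNIP3, EPAS1, LDHB, PGK1 and VEGFA) without replicate 1, and VEGFA alone without replicate 2. In that last case 2.44% of all genes were called in place of 22.7%. Leaving out an array of the other line changes only the shared spread: PGAM1 and LDHA in the miR-338-5p line then missed the threshold without the pool or without miR-421 replicate 2, and in the miR-421 line BNIP3, ENO2 and PFKL missed it without any 1 of the miR-338-5p arrays and ADM without replicate 3. Under the settings that kept all arrays of a line, 3 to 7 of the 7 miR-338-5p calls were kept. Of the 15 miR-421 calls, 9 to 15 were kept under these settings. When only the line's own 3 arrays entered the fit, 4 and 11 calls were kept. Signs did not change for any of the 22 calls. VEGFA passed in both lines under all 16 alternatives run.

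The wider pathway was read from further lists. Of 31 other glycolysis and pyruvate genes, 23 were tested: none passed in the miR-338-5p line, and 2 rose and 4 fell in the miR-421 line, a share close to the 22.7% of all genes called there. The strongest was PDK4, a pyruvate dehydrogenase kinase induced by fasting, at -3.58 (pool), -3.04 and -3.77 on the miR-421 arrays. All 3 were far below control, and the miR-338-5p arrays at -1.20, -1.10 and 0.28 were higher. PDK4 fell with a mean of -3.46 ± 0.38, and so did DLAT, a core subunit of pyruvate dehydrogenase (-1.0003 ± 0.64). BSG, the chaperone of monocarboxylate transporters, rose (0.72 ± 0.27), as did PDK2 (0.36 ± 0.11). Of 7 pentose phosphate genes, RPIA alone passed, and it fell in both lines (-0.62 ± 0.33 and -0.86 ± 0.10). None of 10 other HIF regulators passed in either line.

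Of 35 other HIF targets, 31 were tested. In the miR-338-5p line none rose and 3 fell: TFRC, the transferrin receptor (-1.99 ± 0.30), NDRG1, an iron- and hypoxia-responsive gene (-1.22 ± 0.59), and CXCR4, a chemokine receptor (-1.03 ± 0.22). That share is close to the 9.25% of all genes called in this line. In the miR-421 line 7 rose and 4 fell, beside 10% of all genes higher and 12.6% lower. The highest were DDIT4, an mTOR inhibitor induced by stress (1.73 ± 0.33), and TMEM45A, which encodes a transmembrane protein (1.51 ± 0.23), and the lowest were TFRC (-2.47 ± 0.08) and WSB1, a ubiquitin ligase adaptor (-0.85 ± 0.29). TFRC gave -2.33, -1.77 and -1.86 against -2.39, -2.48 and -2.55, so that every miR-421 array was below every miR-338-5p array. The list medians were -0.03 and -0.01, close to those of all genes.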

How the data were processed

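Per the file headers, the authors read the arrays with Feature Extraction 11.5.1.1; the deposited intensity values are the raw spot brightness and local background of Cy3 and Cy5. The image software's log10 ratio, deposited beside them per the file headers, and the authors' deposited table of log2 ratios, whose normalization is not given in the sources used here, served as alternatives. Probe coordinates are hg19, per the file headers. Exon and UTR annotation was not used here.

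Background was corrected by normexp (offset 50) and each array normalized by loess in limma 3.58.1 (R 4.3.3), with control spots at weight 0 and outlier spots left out. Spots of a probe were averaged. Testing was limited to the 27503 of 58201 probes that passed the image software's background test in Cy3 or Cy5 on 3 or more arrays, with at least 50% of a probe's spots passing. One limma model with a mean per line was fitted to all 6 arrays, with eBayes (prior degrees of freedom 2.05). Each line mean was tested against 0, and their difference, two-sided, with Benjamini-Hochberg adjustment over all probes at 0.05. A gene was represented by its brightest tested probe, and background shares used 1 probe a gene. Signals of single dyes were scaled between arrays by limma's Aquantile.

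On data simulated with 27376 probes, of which 200 were shifted by 1 per line, the fit recovered 71.5% for miR-338-5p, 74% for miR-421 and 62% of 400 for the difference. False calls numbered 6, 7 and 13. The simulated shift was larger than most member means and differences, so recovery at their size was not measured. Errors were drawn independently, and the share of probes shifted was smaller than the 9.25% and 22.7% of genes called in the data. The simulated recovery and false calls therefore do not carry over to these comparisons. Members passing a test, or highest or lowest of their role in a line, are given per array; of the further lists, the 2 highest and 2 lowest that passed in each line. The members and lists were chosen with earlier results of these data known. All arrays shared 1 slide and scan date, so neither was tested as a batch. No sample was left out. Array number limits precision. Of the 52 member probes, 49 had a RefSeq accession in the reference table, all with the member's symbol; 0 were saturated. Alternatives covered background, scaling, filter, outlier spots, left-out arrays, variance model, probes per gene, arrays in the fit and the replicate block.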

Additional observations from a re-analysis of the deposited data

Results flagged for a closer look

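For 8 members every miR-338-5p array was below control and every miR-421 array above it, a pattern shown by 2.06% of all genes. The differences of mean log2 ratios, miR-338-5p minus miR-421, were -1.08 for PGK1, -0.94 for PKM, -0.84 for ENO1, -0.64 for GAPDH, and -0.55 for both PFKM and GPI. TPI1 followed at -0.35. These are 7 glycolytic enzymes, and the eighth gene, the mitophagy receptor BNIP3, had a difference of -0.85. In the limma test of the difference none passed, with adjusted p from 0.069 for ENO1 to 0.28 for GPI. The sign of each difference was the same in all 16 alternatives run.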

How the results depend on the processing

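All 22 calls kept their sign in every alternative run, but many crossed the threshold. Of the calls, 9 passed in at least 80% of the 16 alternatives, while the cause was not tested. Those passing least often were ENO2 (5 of 16), PFKL (6) and BNIP3 (7) in the miR-421 line, and LDHA and PGAM1 (7 each) in the miR-338-5p line. Of the 7 calls in the miR-338-5p line, 3 were kept under the image software's ratio. With only that line's 3 arrays, where fewer arrays entered the fit, 4 were kept. With 1 array left out the miR-338-5p calls numbered 4 to 10, the miR-421 calls 1 to 14, and calls of the difference 0 to 1. The share of all genes called moved as well, from 1.6% to 13.8% for miR-338-5p and from 2.44% to 20.9% for miR-421. The labels do not say whether the numbers 1 and 2 that both lines carry pair the arrays. Correlations of deviations were -0.14 and -0.211 for arrays of the same number, and from -0.211 to 0.197 over every pair across the lines. Deviations from a mean of 3 arrays depend on each other, so these values cannot decide the pairing. The difference of the lines, the single test run with the replicate block, had 0 members past the threshold with the block as without it. The miR-338-5p transporter median (-0.62, of 3 genes) was -0.83 with no background correction, -1.05 with subtraction, -1.09 by the image software's ratio or the authors' table, and -0.29 with no filter on dim probes. For miR-421 the same settings moved -0.45 to -0.64, -0.78, -0.81, -0.81 and -0.22, and median centring gave -0.51. With no filter, the dim SLC2A3 joined the transporter median in both lines, while the values of the other 3 genes were unchanged. The HIF target median in the miR-338-5p line (-0.03) was -0.17 with median centring and -0.094 in the authors' table, and in the miR-421 line (0.44) it was 0.59 with subtraction and 0.66 by the image software's ratio or the authors' table. The miR-421 glycolytic median (0.23) was 0.35 with median centring and 0.14 to 0.31 with 1 array left out. All 19 glycolytic differences stayed below 0 in every alternative run. The count of 14 enzymes without overlap, recomputed by alternatives chosen after seeing the data, ranged from 12 to 16. Some of these alternatives left 1 array out, which makes a lack of overlap easier to reach for any gene. The 10.1% of all genes was counted with all arrays, so it is not the background of that range. Dim probes limit the reading of SLC2A3, CA9 and EGLN3.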

Other observations

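Array probes named for pseudogenes of glycolytic enzymes, chosen after their values were seen, gave ratios of the same sign as the parent genes. The probe for a PGK1 pseudogene had means of -0.61 and 0.58 in the miR-338-5p and miR-421 lines, beside -0.44 and 0.63 for PGK1. Probes for a pair of GAPDH pseudogenes had -0.41 and 0.36, and -0.47 and 0.26, beside -0.24 and 0.40 for GAPDH. A pseudogene of triosephosphate isomerase, had -0.17 and 0.26 beside -0.20 and 0.16 for TPI1. Processed pseudogenes share long stretches of sequence with their parents, so signals of these probes cannot be assigned to 1 of the transcripts, and the same limit holds for the probes of GAPDH, PGK1, TPI1, LDHA, ENO1 and PGAM1.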
